A study of Mus musculus with 4 samples.

Results

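The 10 spermatogonial genes described here are *Gfra1*, *Kit*, *Etv5*, *Id4*, *Zbtb16*, *Sall4*, *Sohlh1*, *Lin28a*, *Nanos3* and *Uchl1*. They were chosen by name as genes of stem, progenitor and early differentiating spermatogonia, and each has 1 row among the 24411 gene rows of every library. The libraries hold RNA of GFP-positive male germ cells that were sorted from mouse testis at postnatal day 18, with 2 control libraries from *Zfp541*+/- testes and 2 libraries labelled *Zfp541* KO, called KO-labelled below. All 4 came from mice carrying *Rec8*-3xFLAG-HA-p2A-GFP, a knock-in allele that yields GFP along with REC8, a cohesin subunit of meiotic chromosomes, so the sort selects cells by the activity of the *Rec8* gene. One control testis was heterozygous for this knock-in and the other homozygous, while both *Zfp541* KO testes were homozygous. The labels do not tell which control is which, so an effect of the knock-in dose cannot be told apart from other differences between the controls. The dose is also unequal between the groups, so its effect cannot be fully told apart from that of *Zfp541* genotype in any group difference. The strain is labelled as C57BL/6 and CBA mixed, whereas the study's methods name C57BL/6 for the knockout and the knock-in mice. The *Zfp541* KO allele is a CRISPR/Cas9 deletion that runs from the first exon to a later intron and removes the exons between them. Several lines carrying it were made, of which a single one served as the study's default, and no other is stated for these libraries. Each library is from 1 testis, and nothing says that the testes of a group came from separate animals, so p-values measure only the spread between these samples. Values are given for replicate 1 and then replicate 2 of each pair.

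Spermatogonia are the mitotic germ cells at the base of the seminiferous tubule. In the undifferentiated cells, GDNF from Sertoli cells acts through GFRA1 and RET to maintain the stem cell pool, and the transcription factors ETV5, ID4, ZBTB16 and SALL4 mark or maintain that state. Differentiation begins with retinoic acid and is accompanied by KIT, the receptor for KIT ligand, and by the paired helix-loop-helix factors SOHLH1 and SOHLH2. These cells come before the meiotic prophase that the REC8 reporter marks, so the question put to the data was at what level their genes were detected in the sorted cells and whether that level differed by *Zfp541* genotype.

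Promoter sequences are shown for a pair of members and their closest relatives, *Sohlh1* with *Sohlh2* and *Lin28a* with *Lin28b*, because in both pairs the relative differed between the groups without overlap of libraries and the member did not. *Gfra1* with *Gfra4* met the same condition, but their windows are not printed. Each window runs from 250 bases before to 50 bases after the start of a RefSeq transcript on GRCm38.p6, is printed in the direction of the gene, and has in capitals each E-box (CANNTG), the motif of helix-loop-helix factors, which reads the same on both strands. The windows lie at chr2:25847199-25847498 on the minus strand for *Sohlh1*, chr3:55181794-55182093 on the plus strand for *Sohlh2*, chr4:134018767-134019066 on the minus strand for *Lin28a* and chr10:45470152-45470451 on the minus strand for *Lin28b*. Unlike the others, the *Lin28b* window lies inside the annotated gene (45376620 to 45486395), at an internal transcript start.
Sohlh1: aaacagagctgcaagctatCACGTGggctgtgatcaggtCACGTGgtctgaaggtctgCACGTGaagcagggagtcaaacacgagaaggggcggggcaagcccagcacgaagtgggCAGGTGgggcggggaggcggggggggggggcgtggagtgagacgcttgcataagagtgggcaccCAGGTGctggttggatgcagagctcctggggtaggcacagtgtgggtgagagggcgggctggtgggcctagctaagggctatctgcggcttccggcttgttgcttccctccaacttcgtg
Sohlh2: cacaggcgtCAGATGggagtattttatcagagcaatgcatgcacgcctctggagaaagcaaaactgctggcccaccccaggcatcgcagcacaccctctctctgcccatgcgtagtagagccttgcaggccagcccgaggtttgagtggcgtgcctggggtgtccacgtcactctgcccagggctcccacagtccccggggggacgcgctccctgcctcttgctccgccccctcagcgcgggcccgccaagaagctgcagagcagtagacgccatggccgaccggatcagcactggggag
Lin28a: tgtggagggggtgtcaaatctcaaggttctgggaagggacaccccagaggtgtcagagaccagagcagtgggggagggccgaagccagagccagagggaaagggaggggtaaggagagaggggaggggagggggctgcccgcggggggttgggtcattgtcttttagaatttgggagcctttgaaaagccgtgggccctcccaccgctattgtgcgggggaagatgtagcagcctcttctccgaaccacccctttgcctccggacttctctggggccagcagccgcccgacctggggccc
Lin28b: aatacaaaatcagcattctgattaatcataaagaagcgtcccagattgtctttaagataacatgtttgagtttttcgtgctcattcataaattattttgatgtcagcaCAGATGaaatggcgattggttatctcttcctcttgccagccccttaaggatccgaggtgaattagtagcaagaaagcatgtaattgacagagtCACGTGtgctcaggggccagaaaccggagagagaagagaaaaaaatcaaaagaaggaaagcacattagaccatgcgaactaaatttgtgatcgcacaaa

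The *Sohlh1* window held 5 E-boxes, of which 3 read CACGTG and 2 read CAGGTG. The *Sohlh2* window held 1, that of *Lin28b* 2 and that of *Lin28a* 0. Among 32817 promoter windows of the same length, 72.3% held at least 1 E-box, 2.1% held 5 or more, 7.15% held CACGTG and 0.0884% held it 3 or more times. The GC box (GGGCGG or its reverse complement) was found 3 times in the *Sohlh1* window, never overlapping an E-box. It was found once each in those of *Sohlh2* and *Lin28a*, against 35.6% of all windows with at least 1. Among other members' windows, that of *Id4* held 5, the first of *Etv5* held 3 and the rest 0 or 1. A count of 3 was thus not particular to *Sohlh1*. Windows were found for 8 of the 10 members, and *Zbtb16* and *Sall4* are named only. The remaining members had between 0 and 3 E-boxes, with the most in *Gfra1*. The windows of its relative *Gfra4* held 5 and 3 E-boxes, so a count of 5 was not particular to *Sohlh1*. These letter matches are descriptions and no binding was measured in these libraries.

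Levels are given as TPM, the authors' length-corrected estimate of transcript abundance. For *Zfp541*, the gene deleted in the KO, the control pair had 112 and 72.2 TPM and the KO-labelled pair 136 and 151 TPM, so its transcript level was not lower under the KO label. TPM per gene does not separate the deleted exons from the rest. The KO label could therefore not be checked by this gene, and every direction given here takes the genotype from the label. *Rec8*, whose locus drives the sort, was at 7.05 and 27.9 TPM for the control pair, with 27.7 and 19.4 TPM for the KO-labelled pair, lowest in control 1. *Ddx4*, the germ cell helicase, was at 397 to 812 TPM and *Sycp3* of the meiotic chromosome axis at 1108 to 2196 TPM over the 4 libraries, so the labelled germ cell origin had its defining markers. The 15 Sertoli cell markers summed to 1392 and 1829 TPM for the control pair, with 2014 and 1571 TPM for the KO-labelled pair, none of them at 0, and 9 of the 15 were higher in control 2 than in control 1. Macrophage markers (8 genes) summed to 2700 and 33.0 TPM for the control pair, with 2303 and 1688 TPM for the KO-labelled pair. Control 2 was thus nearly without macrophage and Leydig cell transcripts, and *Lhcgr*, the receptor for luteinizing hormone, was at 0 there. Endothelial markers (6 genes) summed to 13.7 to 31.8 TPM, peritubular myoid markers (6) to 12.3 to 25.8 TPM and red blood cell genes (5) to 20.3 to 280 TPM. The part of these cells in the members' values was not tested. In these bulk samples, fewer cells of a type and less RNA per cell cannot be told apart.

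**Figure D1:**
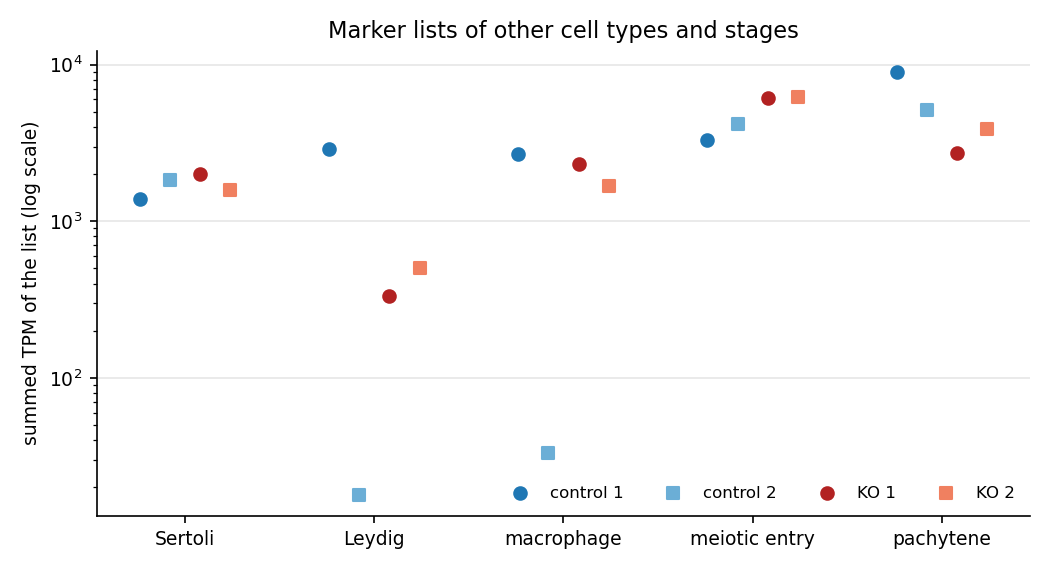
Summed TPM on a log axis of the marker lists of Sertoli cells, Leydig cells, macrophages, meiotic entry and pachytene, with 1 point for each library (blue, controls; red, KO-labelled; circles, replicate 1; squares, replicate 2). Control 2 stands far below the other libraries for the Leydig cell (18.0 TPM) and macrophage (33.0 TPM) lists.

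All 10 members were detected in all 4 libraries, from 0.73 TPM (*Nanos3* in control 1) to 559 TPM (*Uchl1* in control 2). TPM allows for gene length, so levels may be compared between genes within a library. Its 1 fixed total for every library does not make libraries alike. Factors that would set the typical gene equal ran from 0.80 (control 2) to 1.14 (KO-labelled library 1). The order of mean levels was *Uchl1*, *Id4*, *Kit*, *Sohlh1*, *Etv5*, *Lin28a*, *Zbtb16*, *Sall4*, *Nanos3* and *Gfra1*. Neighbours in this order overlapped in their range over the libraries, except that all values of *Id4* lay above those of *Kit*, those of *Lin28a* above those of *Zbtb16* and those of *Sall4* above those of *Nanos3*. The levels set the members widely apart within a library. *Uchl1* was above 92.8% to 98.9% of the listed genes and *Id4* above 88.9% to 93.6%, whereas *Gfra1* was above 41.3% to 47.4%. Read depth is not kept by TPM, so no counting error can be given for the low genes.

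**Figure D2:**
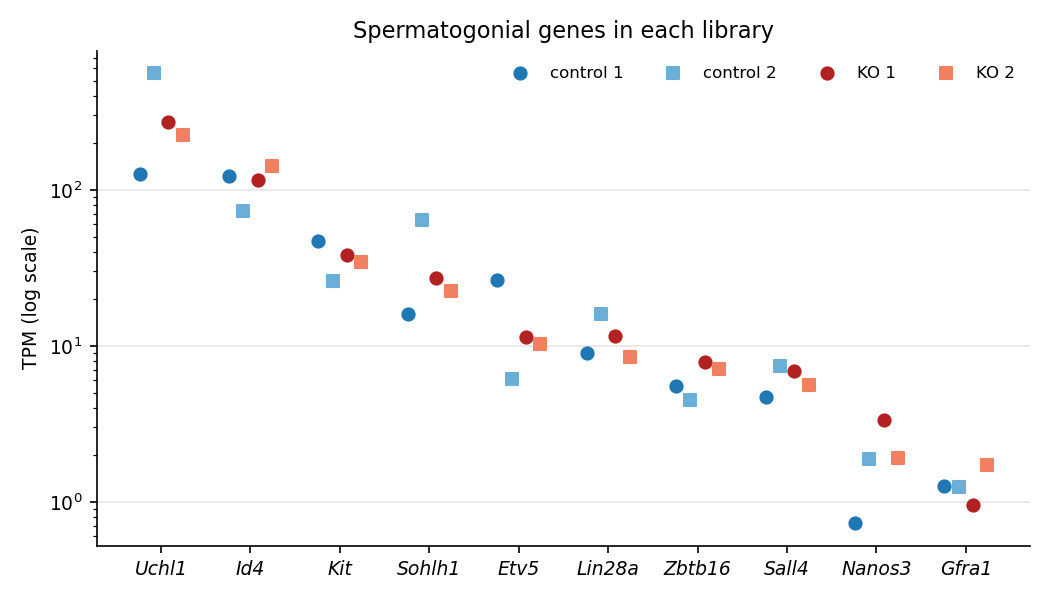
TPM on a log axis for the 10 spermatogonial genes, ordered by mean level, with 1 point for each library (blue, controls; red, KO-labelled libraries; circles, replicate 1; squares, replicate 2). The controls lie on either side of the KO-labelled libraries for *Uchl1*, *Kit*, *Sohlh1*, *Etv5* and *Sall4*, and between them for *Gfra1*.

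The receptors stood far apart in level, with *Gfra1* near 1 TPM and *Kit* among the higher members. *Gfra1*, the co-receptor for GDNF on stem spermatogonia (chromosome 19, 58235604 to 58455909, minus strand, in the GENCODE annotation of GRCm38), was at 1.27 and 1.25 TPM for the control pair, with 0.96 and 1.73 TPM for the KO-labelled pair. It was the lowest member on average, and the controls fell inside the range of the other group. *Kit*, the receptor of differentiating spermatogonia (chromosome 5, 75574916 to 75656722, plus strand), was at 47.0 and 25.9 TPM for the control pair, with 37.9 and 34.3 TPM for the KO-labelled pair. Both of the latter lay between the controls, and the group means of *Kit* were 36.5 ± 14.9 TPM and 36.1 ± 2.55 TPM (SD, n = 2 each). Fold changes are differences of log2(TPM + 1), KO-labelled minus control, from a linear model fitted to all genes in limma, with p adjusted over all of them. The log2 fold change was 0.045 for *Kit* (95% interval -0.92 to 1.01) and 0.034 for *Gfra1* (-1.06 to 1.13), with adjusted p of 0.965 and 0.977 from limma. Both turned negative under median-ratio scaling, which sets the typical gene equal between libraries, and under quantile normalization, which gives all libraries 1 distribution of values. KIT is also made by Leydig cells and mast cells. The summed level of 6 Leydig cell markers was 2910 and 18.0 TPM for the control pair, with 331 and 504 TPM for the KO-labelled pair. In unscaled TPM, control 1 was highest and control 2 lowest for both *Kit* and this list. The part of Leydig cells in the *Kit* values was not tested. All 6 mast cell markers were at 0 TPM in control 2 and in the KO-labelled library 1, and their sum did not exceed 1.36 TPM.

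Among the transcription regulators of undifferentiated cells, *Id4* and *Zbtb16* had higher means in the KO-labelled libraries and *Etv5* a lower one, and none passed a false discovery rate (FDR) of 0.05. *Id4*, an inhibitor of helix-loop-helix factors whose expression marks stem spermatogonia (chromosome 13, 48261228 to 48266026, plus strand), was at 122 and 72.9 TPM for the control pair, with 115 and 142 TPM for the KO-labelled pair. Control 1 lay between the KO-labelled pair, and control 2 was the lowest. Its log2 fold change was 0.44 (standard error, SE, 0.32), 0.11 after median-ratio scaling and 0.069 without control 2. *Zbtb16*, which encodes the zinc-finger repressor PLZF (chromosome 9, 48654297 to 48836222, minus strand), was at 5.54 and 4.51 TPM for the control pair, with 7.87 and 7.13 TPM for the KO-labelled pair. Its libraries did not overlap between the groups, and its log2 fold change of 0.50 (SE 0.36, 95% interval -0.49 to 1.49, limma adjusted p = 0.552) remained positive, at 0.22 to 0.27, after median-ratio scaling or quantile normalization. After quantile normalization its libraries did overlap. *Etv5*, an ETS factor induced by GDNF and FGF signalling (chromosome 16, 22381309 to 22439719, minus strand), was at 26.3 and 6.09 TPM for the control pair, with 11.4 and 10.35 TPM for the KO-labelled pair. The controls thus differed 4.31-fold, with the KO-labelled pair between them, and the log2 fold change was -0.23 (95% interval -2.21 to 1.75). *Sall4*, a zinc-finger factor of the undifferentiated and early differentiating cells (chromosome 2, 168748332 to 168767943, minus strand), was at 4.67 and 7.38 TPM for the control pair, with 6.93 and 5.64 TPM for the KO-labelled pair, again between the controls. The log2 fold change of 0.074 for *Sall4* (95% interval -1.04 to 1.19) turned negative under both other scalings.

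*Sohlh1* and its partner *Sohlh2* differed from each other in how they were placed. SOHLH1 and SOHLH2 form a heterodimer that drives spermatogonial differentiation. *Sohlh1* (chromosome 2, 25842995 to 25847248, minus strand) was at 16.1 and 64.3 TPM for the control pair, with 27.3 and 22.4 TPM for the KO-labelled pair. The controls differed 4.002-fold, and the log2 fold change was -0.38 (SE 0.70, limma adjusted p = 0.821). *Sohlh2* (chromosome 3, 55182028 to 55209957, plus strand) was at 49.5 and 99.7 TPM for the control pair, with 237 and 217 TPM for the KO-labelled pair. All values of the latter group were above both controls. For *Sohlh2* the log2 fold change was 1.68 (SE 0.38, 95% interval 0.64 to 2.71), with an adjusted p of 0.310 from limma that did not pass the FDR of 0.05. It remained positive, at 1.18 to 2.17, under both scalings and with each library left out. The ratio of *Sohlh1* to *Sohlh2* TPM was 0.324 and 0.645 for the control pair, with 0.115 and 0.103 for the KO-labelled pair. These ratios did not overlap, and the two-sided exact permutation p was 0.333, the smallest that 2 against 2 libraries can give. *Sohlh2* was named because its own libraries did not overlap, so the separation of this ratio adds little to that.

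The RNA-binding proteins were among the lower members. *Lin28a* (chromosome 4, 134003330 to 134018841, minus strand), whose product blocks the maturation of let-7 microRNAs and marks progenitor spermatogonia, was at 8.97 and 15.9 TPM for the control pair, with 11.6 and 8.50 TPM for the KO-labelled pair. Its log2 fold change was -0.25 (95% interval -1.41 to 0.91), and the groups overlapped. The paralogue *Lin28b* (chromosome 10, 45376620 to 45486395, minus strand), which acts on the same microRNAs, was at 22.0 and 10.2 TPM for the control pair, with 38.9 and 44.5 TPM for the KO-labelled pair. All values of *Lin28b* in the latter group were above the controls, with a log2 fold change of 1.41 (SE 0.43, limma adjusted p = 0.320) that was 0.89 to 1.93 under both scalings and with each library left out. The *Lin28a* to *Lin28b* ratio was 0.408 and 1.56 in the controls against 0.298 and 0.191 in the KO-labelled libraries, with an exact permutation p of 0.333. *Lin28b* too was named for its own lack of overlap. *Nanos3* (chromosome 8, 84173731 to 84185217, minus strand), a translational regulator that protects germ cells from apoptosis, was at 0.73 and 1.88 TPM for the control pair, with 3.34 and 1.91 TPM for the KO-labelled pair. The groups were separated by only the gap between 1.88 and 1.91 TPM, and *Nanos3* libraries overlapped after either scaling. Its log2 fold change of 0.67, the highest of the 10, had a standard error of 0.49 and an adjusted p of 0.553 from limma.

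**Figure D3:**
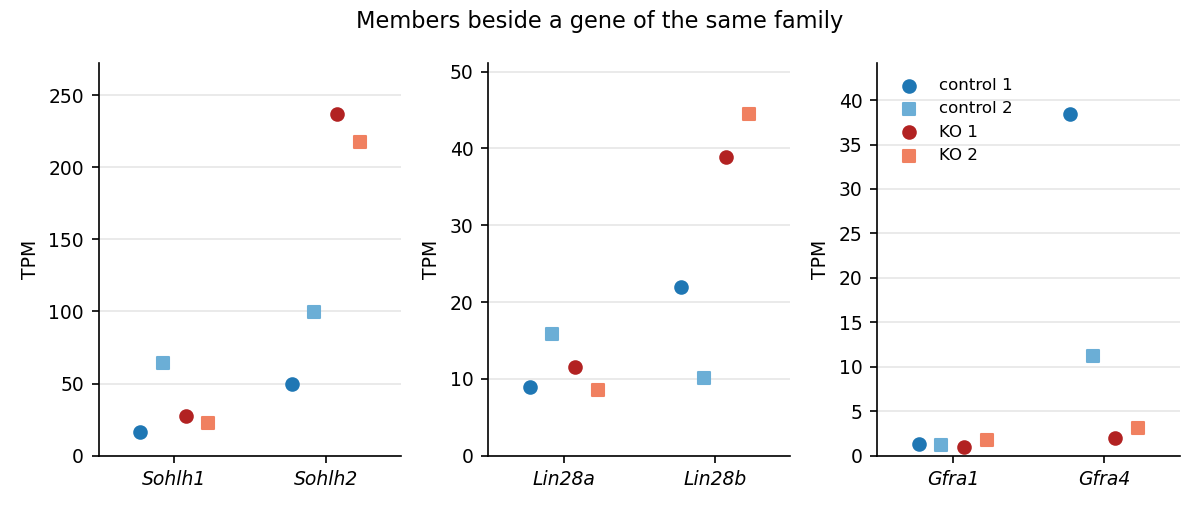
TPM on linear axes for *Sohlh1* and *Sohlh2*, *Lin28a* and *Lin28b*, and *Gfra1* and *Gfra4*, with 1 point for each library (colours and shapes as in the plot of all members by library). In each panel the groups overlap for the member, while *Sohlh2* and *Lin28b* are higher and *Gfra4* is lower in both KO-labelled libraries.

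*Uchl1* (chromosome 5, 66676091 to 66687234, plus strand), a ubiquitin hydrolase abundant in spermatogonia and neurons, was the highest member and the one on which the controls disagreed most. It was at 127 and 559 TPM for the control pair, with 273 and 225 TPM for the KO-labelled pair. The controls differed 4.42-fold and the KO-labelled libraries 1.21-fold. The log2 fold change was -0.10, with a 95% interval of -2.14 to 1.94 and an adjusted p of 0.963 from limma. The sign for *Uchl1* changed with the libraries used, at -1.17 without control 1 and 0.96 without control 2. It was also positive, at 0.036, without the KO-labelled library 2, and was -0.0014 after quantile normalization. In the fits without a control, the remaining control was a lone sample assumed to vary like the KO-labelled libraries.

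Over the 10 members, 6 log2 fold changes were positive (3 of them, *Gfra1*, *Kit* and *Sall4*, not under the other scalings) and 4 negative, and none passed an FDR of 0.05, as was so for all 14512 genes tested, of which 0% were called higher and 0% lower. The 4 negative ones each turned positive with a library left out, *Etv5* without control 1 (0.74) and *Sohlh1* (0.59), *Lin28a* (0.13) and *Uchl1* (0.96) without control 2. *Uchl1* was also positive, at 0.036, without the KO-labelled library 2. At an unadjusted p under 0.05 there were 0 members, and among all genes 1549 higher and 542 lower. Adjusted p ranged from 0.552 to 0.977 over the members, and all 10 intervals included 0. The median log2 fold change was 0.039 for the members and 0.28 for all genes tested, and 3 members lay above that overall median. After median-ratio scaling, which took the overall median to -0.0044, the members' median was -0.24. In 2 members, *Zbtb16* and *Nanos3*, both KO-labelled libraries were above both controls, which was so for 38.6% of all genes. No member had both below, as 12.1% of all genes did. The interval reached beyond 1 on the log2 scale in both directions for 5 members, *Gfra1*, *Etv5*, *Sall4*, *Sohlh1* and *Uchl1*.

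**Figure D4:**
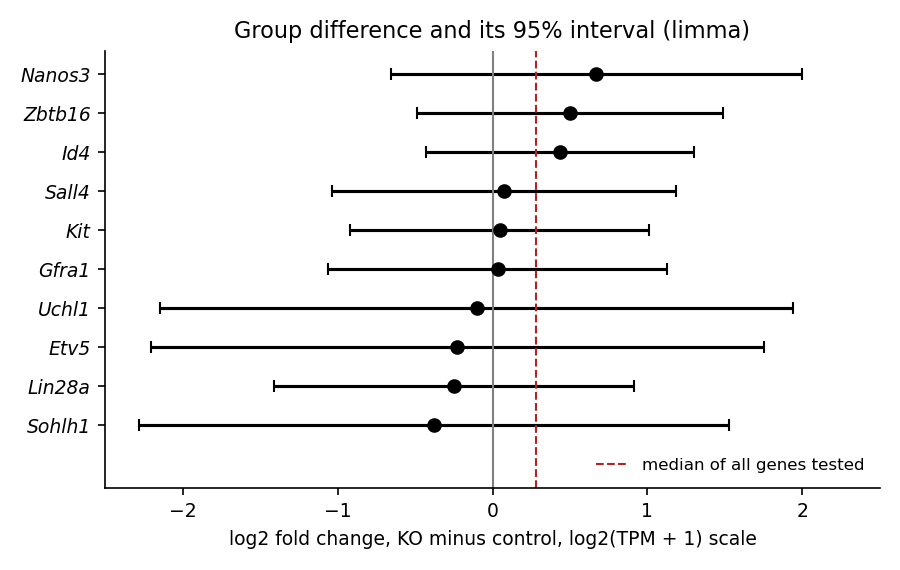
Log2 fold change of each member, KO minus control on the log2(TPM + 1) scale, with its 95% interval from limma. The solid line is at 0 and the dashed line at 0.28, the median of all genes tested, and every interval crosses 0, while the points of *Gfra1*, *Kit* and *Sall4* move below 0 under median-ratio scaling and quantile normalization.

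In 8 of 10 the log2 difference between the controls exceeded the group difference, against 61.6% of all genes tested. The former is between single libraries and the latter between means of 2, so the former is the more variable by construction. In 5 members, *Kit*, *Etv5*, *Sall4*, *Sohlh1* and *Uchl1*, both KO-labelled libraries lay between the controls, against 30.9% of all genes. The median difference between controls was 0.75 in size on the log2 scale for the members and 0.65 for all genes. Between the KO-labelled libraries it was 0.27 and 0.16. The members went in opposite directions. *Uchl1*, *Sohlh1*, *Lin28a* and *Sall4* were highest in control 2 of all 4 libraries (4 of 10 members against 16.7% of all genes), and *Kit*, *Etv5*, *Id4* and *Zbtb16* were lowest in it (4 of 10 against 53.4%). In TPM the list therefore did not go up or down as a unit in control 2. These placements, and those between the controls, used unscaled TPM and were not repeated after scaling. Control 2 had the lowest median-ratio factor (0.80, against 1.01 to 1.14 for the other libraries), so its place could change for some members.

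**Figure D5:**
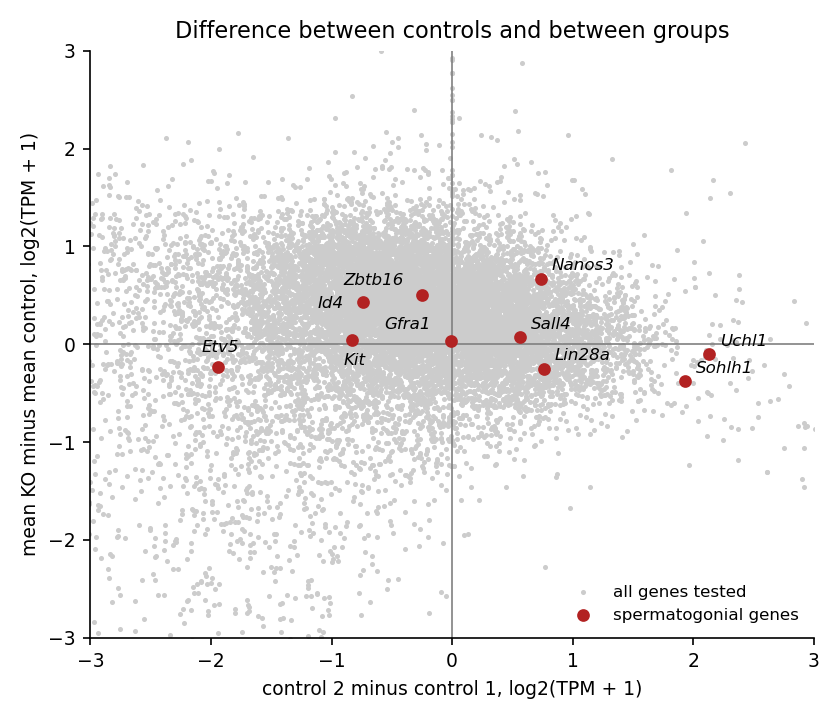
Difference between the controls (horizontal) against the difference between group means (vertical), both on the log2(TPM + 1) scale, for all genes tested (grey) and the members (red), with 619 genes outside the axes, which end at 3. The members spread along the horizontal axis from *Etv5* to *Uchl1*, and along the vertical axis from -0.38 (*Sohlh1*) to 0.67 (*Nanos3*). The horizontal axis compares single libraries and the vertical axis means of 2, so the former varies more by construction.

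Leaving out either control brought members past the FDR, and of these only *Uchl1* was called both times. Without control 1, 3 members were called by limma, against 48.1% of all genes. These were *Id4* at 0.80 (adjusted p = 0.0261), *Sohlh1* at -1.34 (adjusted p = 0.0117) and *Uchl1* as given above. Without control 2, 2 members were called, against 28.4% of all genes, namely *Uchl1* with the opposite sign and *Etv5* at -1.20 (adjusted p = 0.0297). The spread in both fits came only from the close pair of KO-labelled libraries.

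Other genes of the members' pathways gave 0 calls higher and 0 lower at an FDR of 0.05 in each of the lists. Of all 14512 genes tested 0% were called, so this is not particular to the lists. Of 24 further genes of undifferentiated spermatogonia, 17 had a mean of at least 1 TPM and their median log2 fold change was 0.19. Among the 17, 6 had both KO-labelled libraries above the controls and 2 below, close to the shares of all genes tested (38.6% above and 12.1% below). *Itga6*, an integrin subunit used to enrich these cells, was at 4.86 and 3.85 TPM for the control pair, with 11.8 and 11.1 TPM for the KO-labelled pair (log2 fold change 1.22, limma adjusted p = 0.319). *Egr4*, an early response factor, was at 17.3 and 6.99 TPM against 5.30 and 3.18 TPM. *Thy1*, a surface marker of undifferentiated cells that other testis cells also carry, was at 1.01 and 8.02 TPM against 12.0 and 13.4 TPM. The libraries of *Thy1* overlapped after quantile normalization, and its log2 fold change of 1.68 was 0.60 without control 1.

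The 12 further genes of differentiating spermatogonia had a median of 0.16, with 3 above and 1 below without overlap (all genes tested, 38.6% and 12.1%). The gene below was *Dmrtb1*, a regulator of the switch from mitosis to meiosis, at 362 and 154 TPM for the control pair, with 93.4 and 94.7 TPM for the KO-labelled pair (log2 fold change -1.32, limma adjusted p = 0.331). *Dazl*, a germ cell translation regulator, was at 417 and 690 TPM against 1047 and 939 TPM. It overlapped between the groups after median-ratio scaling, whereas *Dmrtb1* did not.

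For GDNF and FGF signalling, 13 of 15 genes were tested, with a median of 0.31, 4 above and 2 below without overlap (all genes tested, 38.6% and 12.1%). *Map2k1*, a kinase of the MAP kinase cascade, was at 27.9 and 25.2 TPM for the control pair, with 42.9 and 41.8 TPM for the KO-labelled pair, and its log2 fold change of 0.66 (limma adjusted p = 0.327) was 0.34 after median-ratio scaling. *Cxcr4*, a chemokine receptor, and *Dusp6*, a phosphatase that limits this cascade, were also above without overlap, although control 1 was near that group (10.1 against 14.1 and 14.2 TPM for *Cxcr4*, 12.4 against 17.3 and 15.96 TPM for *Dusp6*). For KIT signalling, all 14 genes were tested, with a median of 0.56, 8 above and 1 below (all genes tested, 38.6% and 12.1%). *Tsc2*, an inhibitor of the mTOR pathway, was at 31.1 and 27.2 TPM for the control pair, with 58.1 and 58.7 TPM for the KO-labelled pair (log2 fold change 0.98, limma adjusted p = 0.310). *Kitl*, the ligand of KIT from Sertoli cells, was at 24.4 and 6.15 TPM against 14.9 and 12.8 TPM, and like *Kit* placed both KO-labelled libraries between the controls. The *Kit* to *Kitl* ratio was 1.93 and 4.22 for the control pair, with 2.55 and 2.69 for the KO-labelled pair, so these ratios overlapped.

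Of the let-7 pathway and LIN28A partners, 9 of 11 listed names were found and 8 tested. The median log2 fold change was 0.99, with 7 above and 0 below without overlap, where all genes tested had 38.6% above and 12.1% below. *Dicer1*, the enzyme that matures microRNAs, was at 25.9 and 24.8 TPM for the control pair, with 64.2 and 64.7 TPM for the KO-labelled pair (log2 fold change 1.31, SE 0.20, limma adjusted p = 0.310). *Zcchc11*, a terminal uridylyltransferase that works with LIN28A on let-7 precursors, was at 50.6 and 30.7 TPM against 93.2 and 85.0 TPM. Among 20 tested paralogues of the members the median was 0.12, with 3 above and 3 below (all genes tested, 38.6% and 12.1%). Among those without overlap, the largest difference was in *Gfra4* (chromosome 2, 131039632 to 131043088, minus strand), a GFRA-family receptor for persephin, at 38.4 and 11.2 TPM for the control pair, with 1.95 and 3.06 TPM for the KO-labelled pair. Its log2 fold change was -2.66 (SE 0.69, limma adjusted p = 0.311) and stayed between -3.51 and -1.82 under both scalings and with each library left out. The *Gfra1* to *Gfra4* ratio was 0.033 and 0.111 for the control pair, with 0.492 and 0.565 for the KO-labelled pair. These ratios did not overlap (exact permutation p = 0.333). *Gfra4* too was named for its own lack of overlap, so the separation of this ratio adds little to that.

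Lists of the neighbouring stages had medians on either side of that of the members. The 14 genes of meiotic entry and early prophase had a median of 0.79, with 10 above and 0 below without overlap. The 11 pachytene genes had a median of -1.41, with 0 above and 6 below. The shares over all genes tested were 38.6% above and 12.1% below. Summed TPM was 3313 and 4193 in the controls against 6140 and 6252 for the former list, and 8988 and 5095 against 2708 and 3856 for the latter. The members' median of 0.039 lay between these medians, and the differences between lists were not tested. Of 9 round spermatid genes only 3 reached a mean of 1 TPM, and their median was 0.90.

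By distance over the 4 libraries on the centred log2(TPM + 1) scale, the genes nearest to *Uchl1* were *Xlr* (distance 0.063), *Siva1* (0.063) and *1700080O16Rik* (0.088). *Siva1* was at 79.2 and 344 TPM for the control pair, with 178 and 141 TPM for the KO-labelled pair. The genes nearest to *Id4* were *Tctn3* (0.047), *Trib1* (0.059) and *Gas2* (0.060), and those nearest to *Kit* were *Slc35f6* (0.038), *Adamts17* (0.057) and a row stored under a date in place of its gene symbol (0.059). These patterns rest on 4 values each, which share the same libraries.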

How the data were processed

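Per the labels, the methods and the submitters' processing notes, the authors trimmed single-end reads with Trim Galore 0.5.0 (cutadapt 1.16), aligned them to UCSC mm10 with STAR 2.6.0a and quantified genes with RSEM 1.3.1. They deposited TPM per gene for each of 4 libraries, which keeps no depth, so the error from read counting is unknown. The estimated counts were not used here. Files were read with R 4.3.3, and log2(TPM + 1) was fitted for genes averaging 1 TPM or more by genotype in limma 3.58.1, with a mean-variance trend, two-sided, and Benjamini-Hochberg adjustment over all 14512 genes at an FDR of 0.05. On this scale a fold change understates that of low genes. The fit was tested on simulated data with independent noise of the same spread in all 4 libraries. The controls here differ more than the KO-labelled libraries do, so that test does not cover this feature of the data. RSEM's own differential test, named by the methods, was not repeated. The members and the 16 gene lists were chosen with earlier results of these data known. Named genes were the members, *Zfp541*, *Rec8*, up to 3 genes of a list with the largest change without overlap, and the 3 nearest genes to each of the 3 highest members. *Sohlh2*, *Lin28b* and *Gfra4* come from those lists, and *Ddx4*, *Sycp3*, *Lhcgr* and *Kitl* were named after their values were seen. Promoters came from RefSeq (GRCm38.p6) and gene positions from GENCODE M21 (GRCm38, the assembly UCSC calls mm10).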

Additional observations from a re-analysis of the deposited data

How the results depend on the processing

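TPM keeps no depth, 2 libraries a group leave little power, and the controls differ from each other, which limits every comparison here. Alternatives changed the FDR, the scaling, the pseudocount, the low-value filter, limma's variance settings or the block, or left out a library. Only the crossed replicate block was chosen after seeing the data. The libraries share only a replicate number, and deviations of same-numbered libraries correlated at -0.16 over 14512 genes. With the replicate block, 0 genes were called higher and 0 lower, and 0 members. With the numbers crossed, 7 genes were higher and 80 lower, with 0 members among them.

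With a library left out, called genes ranged from 0 to 5610 higher and 0 to 1875 lower, called members from 0 to 3, and the members' median from -0.039 to 0.24. Members without overlap ranged from 2 to 5 higher and 1 to 4 lower, against 2 and 0 with all libraries. A lone library need only lie outside the other pair, which is easier to meet. No share over all genes was taken in these settings, so the rise is not a result about the members. With all libraries, 1 member was higher without overlap at a minimum mean of 5 TPM (*Zbtb16*, since *Nanos3* and *Gfra1* were filtered out). The count was 1 after median-ratio scaling and 0 after quantile normalization. No share over all genes was taken in these settings either, so the fall is not a result about the members. Median-ratio scaling gave the members a median of -0.24 (all genes -0.0044), and quantile normalization gave -0.18 (all genes 0.077).

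With median-ratio scaling *Gfra1* turned to -0.15, *Kit* to -0.27 and *Sall4* to -0.21, and with quantile normalization to -0.22, -0.25 and -0.14. With a library left out, *Gfra1* ranged from -0.21 to 0.27, *Kit* from -0.37 to 0.46, *Etv5* from -1.20 to 0.74, *Sall4* from -0.21 to 0.36, *Sohlh1* from -1.34 to 0.59, *Lin28a* from -0.63 to 0.13 and *Uchl1* from -1.17 to 0.96. *Id4*, *Zbtb16* and *Nanos3* stayed above 0 in every alternative that gave a value. The cause of the changes with a library left out was not tested.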
